A study of Mus musculus with 2 samples.

Results

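The splicing regulators described here are 59 genes of 3 kinds: 13 genes of the SR and Tra2 type, 16 heterogeneous nuclear ribonucleoprotein (hnRNP) genes with the 3 PTB genes and Tardbp beside them, and 26 genes of families known for tissue-restricted splicing control, widely expressed relatives included, of which 2 are epithelial. They were chosen as a list of gene symbols, matched to the 43346 gene rows of the deposited tables by Ensembl gene identifier without its version, and all 59 matched. The RNA came from the midbrain of healthy B6NCrl mouse embryos at embryonic day 10.5, from pools of male and female embryos, and no embryo carried an allele or received an agent that the labels name. There were 2 libraries, called biological replicates in the labels: replicate 1 from 69 pooled embryos and replicate 2 from 51. Each started from 10 ng of RNA longer than 200 nt with added spike-in RNAs. There is a single group and no condition, so every comparison is between members, or of replicate 1 with replicate 2.

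SR proteins carry RNA-binding domains and a tail rich in arginine and serine, and they mostly promote the use of exons they bind. Proteins of the hnRNP type coat nascent RNA and often repress exons, so the choice of an exon commonly depends on the balance of both kinds. Neural development adds tissue-restricted regulators on top of this common machinery: progenitors use Ptbp1, which holds neuronal exons out, while neurons use Ptbp2, Nova, Rbfox, neuronal Elavl (Hu) and Celf proteins and Srrm4. Many SR genes, and several hnRNP genes, hold highly conserved "poison" exons with a premature stop codon, through which the protein limits its own mRNA by nonsense-mediated decay.

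The total expected count, an estimate of the reads per library, was 47128426 in replicate 1 and 52189568 in replicate 2. Spike-ins took 3.39% of it in replicate 1 and 3.28% in replicate 2. Otx2, which marks forebrain and midbrain, had 138.04 TPM (a transcript's share of the library, corrected for its length) in replicate 1 and 122.72 TPM in replicate 2. En1, which marks the midbrain and anterior hindbrain, had 4.74 and 4.46 TPM. En2, read beside them, had 0.92 TPM in replicate 1 and 0.71 TPM in replicate 2, under 1 TPM in both. The 20 neuron markers and 15 neural progenitor markers were all detected, as were the 8 red cell markers, 12 of 14 mesenchyme and neural crest markers, 11 of 14 surface ectoderm and epithelium markers and 3 of 10 skeletal and heart muscle markers. Myod1, a defining gene of skeletal muscle, had 0.04 TPM in replicate 1 and 0 TPM in replicate 2. In RNA of a whole tissue, fewer cells of a type and less RNA per cell cannot be told apart.

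All 59 genes had at least 1 TPM in both libraries, the level taken here as detected, beside 58.1% of 21474 protein-coding genes. Together they held 1.49% of all TPM in replicate 1 and 1.49% in replicate 2. Their median mean level was 129.4 TPM, against 20.7 TPM for the 12477 detected protein-coding genes. A mean of at least 100 TPM was reached by 33 of the 59 genes (55.9%), beside 13.8% of detected protein-coding genes. The classes differed in level: SR genes had a median of 349.2 TPM and hnRNP genes of 334.4 TPM, while the 24 genes of the tissue-restricted families had 14.2 TPM.

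**Figure D1:**
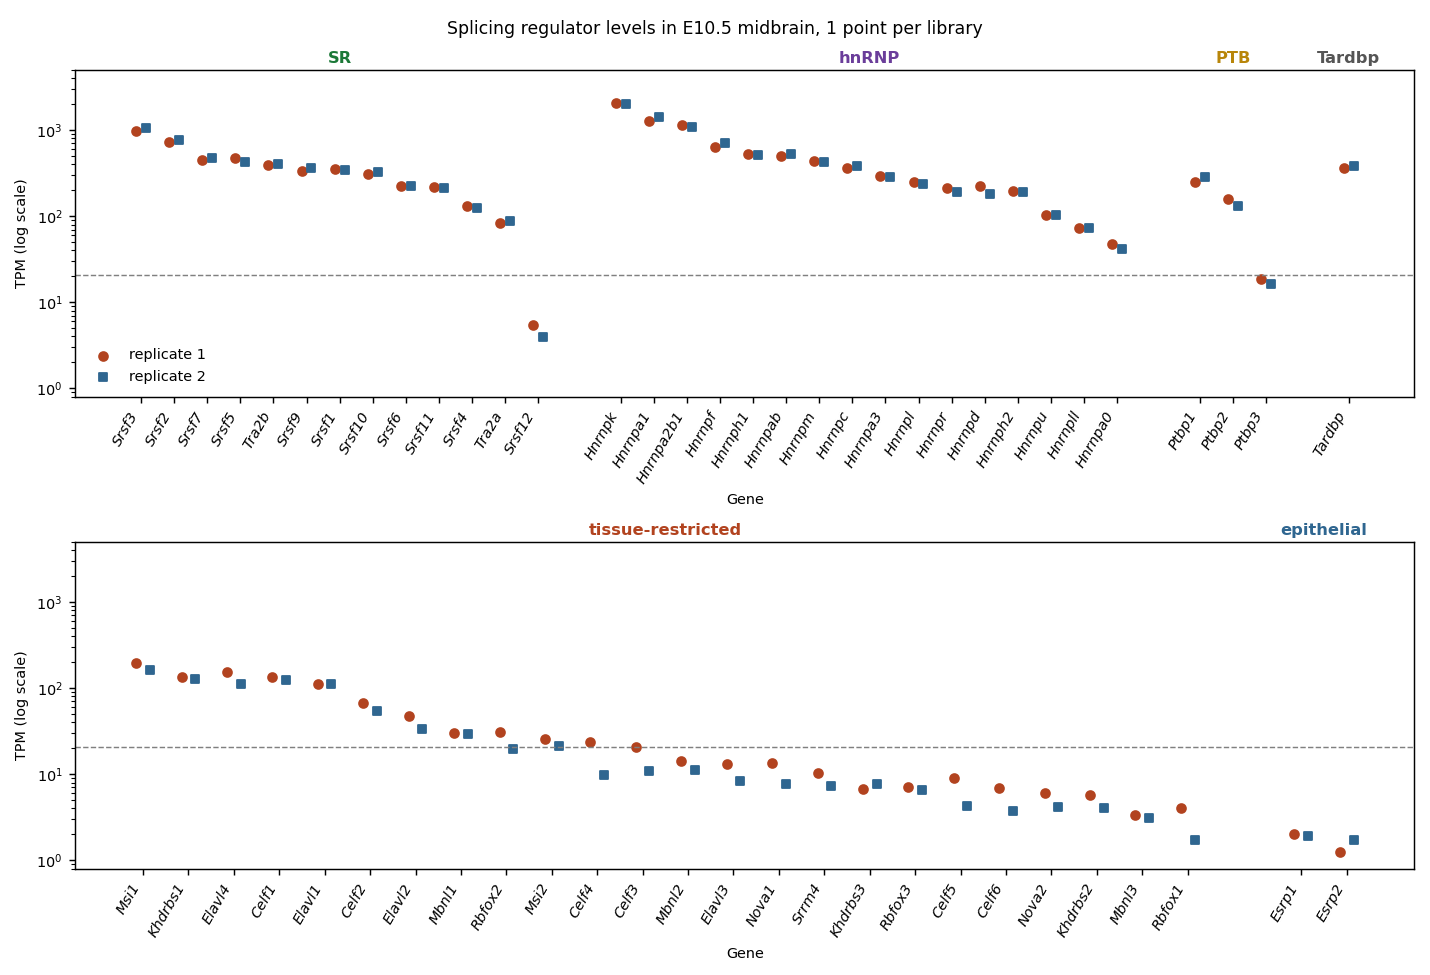
TPM of the 59 splicing regulator genes on a log scale, 1 point per gene and library (circle and left, replicate 1; square and right, replicate 2), grouped by class and ordered by mean. The dashed line is the median of detected protein-coding genes (20.7 TPM), and 11 of 13 SR genes and 14 of 16 hnRNP genes lie at or above 100 TPM, against 5 of 24 genes of the tissue-restricted families.

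Among the SR genes, Srsf3 (ENSMUSG00000071172.8, chromosome 17, 29032628 to 29043373, plus strand, GRCm38 with GENCODE M21), which encodes the smallest of the classical SR proteins, was highest, with 978.48 TPM in replicate 1 and 1057.46 TPM in replicate 2. This order is of whole genes, not of coding transcripts. Coding transcripts held 38.9% of Srsf3 TPM in replicate 1 and 39.4% in replicate 2, against 75.3% and 76.8% for Srsf2 and 100% for Srsf7. Srsf2, the nuclear speckle protein also called SC35, had 721.07 and 761.31 TPM; Mettl23, on the opposite strand with overlapping exons, had 5.36% and 4.90% of its count. Srsf7 had 445.35 and 471.56 TPM. It lay close to Srsf5, with 472.43 and 428.41 TPM, and the order of these genes turned between the libraries. Tra2b, the relative of a fly sex-determination gene, had 391.75 and 406.79 TPM, and was 4.74 times Tra2a in replicate 1 and 4.59 times in replicate 2. Srsf9, Srsf1, a founding member of the SR family, and Srsf10, which turns into a repressor when it loses phosphate, came next at means of 349.68, 349.21 and 318.09 TPM. Srsf9 and Srsf1 changed places between the libraries. Srsf6, Srsf11 and Srsf4 had means of 224.5, 215.7 and 128.9 TPM. Tra2a had 82.69 and 88.65 TPM. Srsf12, a relative of Srsf10, was lowest by far, with 5.45 TPM in replicate 1 and 3.96 TPM in replicate 2, the only SR gene under the median of detected genes.

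Among the hnRNP genes, Hnrnpk (ENSMUSG00000021546.13, chromosome 13, 58391142 to 58403343, minus strand), which binds runs of C in RNA and single-stranded DNA, had 2061.84 TPM in replicate 1 and 2015.26 TPM in replicate 2 and ranked 35 among detected protein-coding genes by mean level. Hnrnpa1, a repressor of exons, had 1273.44 and 1413.36 TPM, and its relative Hnrnpa2b1 had 1151.21 and 1087.53 TPM. Annotated pseudogenes of Hnrnpa1 and Tra2b exist, and how reads were split between near-identical copies cannot be told from the tables. Hnrnpf and Hnrnph1, which bind runs of G, had means of 679.34 and 524.4 TPM, and Hnrnph2 of 192.6 TPM. Hnrnpab, Hnrnpm, which binds GU-rich RNA, and Hnrnpc, which binds runs of U, had means of 514.9, 430.8 and 376.4 TPM. Hnrnpa3, Hnrnpl, which binds CA repeats, Hnrnpr, and Hnrnpd, also known in mRNA decay, lay at means of 292.4, 241.9, 201.9 and 201.5 TPM. Hnrnpu, a scaffold protein of the nucleus, had 103.63 and 103.37 TPM; Cox20, on the opposite strand with overlapping exons, had 5.21% and 4.79% of its count. The lowest were Hnrnpll, the relative of Hnrnpl, with 72.04 TPM in replicate 1 and 73.68 TPM in replicate 2, and Hnrnpa0, with 47.87 and 41.54 TPM. Of all 59 genes, 4 were among the 100 highest protein-coding genes by mean TPM of the whole gene: Hnrnpk, Hnrnpa1, Hnrnpa2b1 and Srsf3.

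Tardbp encodes TDP-43, an hnRNP-like protein that keeps cryptic exons out and binds its own mRNA. It had 358.9 TPM in replicate 1 and 387.49 TPM in replicate 2.

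Ptbp1 (ENSMUSG00000006498.12, chromosome 10, 79854427 to 79864771, plus strand), the PTB gene of progenitors and most other cells, had 250.49 TPM in replicate 1 and 285.01 TPM in replicate 2. Ptbp2 (ENSMUSG00000028134.7, chromosome 3, 119718742 to 119784466, minus strand), its neural relative, had 157.41 and 131.76 TPM. Ptbp1 was therefore 1.59 times Ptbp2 in replicate 1 and 2.16 times in replicate 2, a mean of 1.88 ± 0.40 (SD, n = 2), and it was the higher of the pair in both libraries. Ptbp3 had 18.71 and 16.17 TPM. The exons of Ptbp1 overlap those of Plppr3 on the opposite strand, to which the tables give 143 TPM in replicate 1 and 92.97 TPM in replicate 2, or 49.1% and 28.2% of the Ptbp1 expected count. Whether the libraries kept strand is not known, so reads of this pair may not be separable. Only 1 Ptbp2 transcript is listed, a coding one, so the skipping of its exon that Ptbp1 is known to cause cannot be read here.

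The tissue-restricted families spanned a wide range of levels. Musashi proteins bind RNA in neural progenitors and mainly act on translation. Msi1 had 195.36 TPM in replicate 1 and 161.43 TPM in replicate 2, the highest of these families, and Msi2 had 25.74 and 21.46 TPM. Msi1 was 7.59 and 7.52 times Msi2.

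In the Elavl family, Elavl1 (HuR) is made in most cells and Elavl2, Elavl3 and Elavl4 (HuB, HuC and HuD) are neuronal. Elavl4 had 153.71 TPM in replicate 1 and 110.92 TPM in replicate 2, against 111.72 and 110.55 TPM for Elavl1. The ratio of Elavl4 to Elavl1 was 1.38 in replicate 1 and 1.00 in replicate 2, so their order was not separated in replicate 2. These are levels of whole genes. Models without an annotated reading frame held 57.4% of Elavl4 TPM in replicate 1 and 58.7% in replicate 2, while all Elavl1 TPM was coding. By expected counts, not divided by length, Elavl4 had 6701 and 5691, against 19451 and 22026 for Elavl1. Elavl2 had 47.24 and 33.66 TPM. Elavl3 was the lowest of the 4, with 13.00 and 8.23 TPM.

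In the Celf family, whose proteins bind GU-rich RNA, Celf1 and Celf2 are widely expressed and Celf3 to Celf6 are mostly of the nervous system. Celf1 had 133.15 TPM in replicate 1 and 125.71 TPM in replicate 2, and Celf2 had 67.59 and 53.64 TPM. Celf4 had 23.82 and 9.85 TPM. Celf3, with 20.89 TPM in replicate 1 and 10.77 TPM in replicate 2, changed places with it. The lower pair were Celf5, with 9.03 and 4.24 TPM, and Celf6, with 6.91 and 3.75 TPM. All 4 of Celf3 to Celf6 were higher in replicate 1, and Celf1 was 5.59 times Celf4 there and 12.8 times in replicate 2.

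Rbfox proteins bind a GCAUG element beside neural and muscle exons. Rbfox2, the form already present in progenitors, had 30.85 TPM in replicate 1 and 19.71 TPM in replicate 2. Rbfox3, whose protein is the mature neuron marker NeuN, had 7.0 and 6.46 TPM. Rbfox1 (ENSMUSG00000008658.11, chromosome 16, 5885355 to 7411526, plus strand), a regulator of neuronal excitability genes, had 4.09 and 1.70 TPM, the lowest mean of the 24 genes, from expected counts of 168 in replicate 1 and 75 in replicate 2. Both libraries thus listed Rbfox2 above Rbfox3 and Rbfox3 above Rbfox1.

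Nova proteins control inhibitory synapse exons. Nova1 had 13.35 TPM in replicate 1 and 7.61 TPM in replicate 2, and Nova2 had 6.11 and 4.11 TPM. Srrm4, which drives the use of neural microexons, had 10.21 TPM in replicate 1 and 7.20 TPM in replicate 2. Its antisense neighbour Srrm4os, with overlapping exons, had 4.13 and 2.43 TPM. All of these genes lay under the median of detected protein-coding genes and above the detection level.

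The Mbnl proteins are best known for muscle, where they switch fetal exons to adult ones, and the Khdrbs (Sam68-like) proteins for exons of neurexin genes. Mbnl1 had 30.23 TPM in replicate 1 and 29.14 TPM in replicate 2, Mbnl2 had 14.09 and 11.15 TPM, and Mbnl3 had 3.38 and 3.08 TPM. Khdrbs1 (Sam68), the widely expressed form, had 136.39 TPM in replicate 1 and 129.02 TPM in replicate 2. It was 20.3 and 16.8 times Khdrbs3, which had 6.73 and 7.66 TPM. Khdrbs2 had 5.73 and 4.06 TPM and was the lowest of the 3 in both libraries.

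The epithelial regulators Esrp1 and Esrp2, which favour epithelial exons such as that of Fgfr2, had the lowest means of all 59 genes. Esrp1 had 1.99 TPM in replicate 1 and 1.90 TPM in replicate 2. Esrp2 had 1.23 and 1.72 TPM. In replicate 2 alone Rbfox1 was lower than both. Nfatc3, whose exons overlap those of Esrp2 on the opposite strand, had an expected count of 537.3 in replicate 1 and 638.1 in replicate 2, against 110.7 and 158.9 for Esrp2. The 14 surface ectoderm and epithelium markers summed to 69.53 TPM in replicate 1 and 89.61 TPM in replicate 2, with 11 detected and Krt5 at 0.10 and 0.19 TPM; their part in the Esrp levels was not tested.

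Between the libraries, ratios of replicate 1 over replicate 2 were taken from expected counts scaled by TMM, a method that centres the bulk of genes on a ratio of 1. With 1 library on each side there is no test, so a gene was called by size, past 1.5-fold, and intervals are exact binomial 95% intervals (Clopper-Pearson) that cover counting error only. Of the 59 genes, 7 were past 1.5-fold higher in replicate 1 (11.9%), beside 6.72% of the 14768 genes whose mean reached 1 TPM, and 0 were past 1.5-fold lower, beside 3.05%. All 7 belong to the 24 genes of the tissue-restricted families (29.2% of them): Rbfox1, Celf4, Celf6, Celf5, Celf3, Nova1 and Nova2. None of the SR, hnRNP, PTB, Tardbp or Esrp genes passed 1.5-fold in either direction.

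Rbfox1 had the widest ratio, 2.42-fold higher in replicate 1 (log2 1.28, interval 0.88 to 1.70). Celf4 was 2.29-fold higher (log2 1.20, interval 1.10 to 1.29), and Celf6 2.17-fold (log2 1.12, interval 0.90 to 1.35). Celf5 was 2.04-fold higher, Celf3 1.84-fold and Nova1 1.67-fold. These 6 genes had intervals wholly above 1.5-fold. Nova2 lay just inside the threshold at 1.51-fold (log2 0.59, interval 0.47 to 0.72), and just outside it were Elavl3 at 1.499-fold (log2 0.58) and Rbfox2 at 1.479-fold (log2 0.56). Past 2-fold there were 4 genes higher in replicate 1, Rbfox1, Celf4, Celf6 and Celf5, beside 2.08% of all genes, and 0 lower, beside 1.17%. Past a ratio of 5 to 4 there were 14 higher, beside 15% of all genes, and below 4 to 5 there was 1 lower, Esrp2, beside 8.57%. With TPM taken without TMM, 8 genes were past 1.5-fold higher: Elavl3 and Rbfox2 joined and Nova2 left. The share of all genes past 1.5-fold was taken with TMM only. Riiad1, whose exons overlap those of Celf3 on the opposite strand, had expected counts of 153 in replicate 1 and 122 in replicate 2, against 1622 and 957 for Celf3.

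Over the tissue-restricted families, 19 of 24 genes were higher in replicate 1 with TMM, and the median log2 ratio was 0.39. The median over all 14768 genes was 0 with TMM. With TPM taken without TMM, 23 of the 24 were higher, but so were 42 of all 59 genes, against 28 with TMM. The share of all genes on each side was not taken without TMM. With TMM, the 5 lower in replicate 1 were Khdrbs3, Mbnl1, Elavl1, Celf1 and Khdrbs1. Apart from Khdrbs3 these are widely expressed forms, but Celf2, also widely expressed, was higher (log2 0.23, interval 0.18 to 0.28). For Mbnl1, Elavl1, Celf1 and Khdrbs1 the TPM given above was slightly higher in replicate 1, so the side they lie on turns with the scaling. Over the SR genes the median log2 ratio was -0.15 (-0.05 with TPM taken without TMM) and 10 of 13 genes were lower in replicate 1 (8 of 13 with TPM taken without TMM). Over the hnRNP genes it was -0.03, which turned to 0.03 with TPM taken without TMM. With TMM 12 of 16 were lower in replicate 1, and with TPM taken without it 5 of 16 were, so the balance of this class turns with the scaling. The neural PTB gene and the general one lay on opposite sides: the log2 ratio was 0.18 for Ptbp2 (interval 0.15 to 0.21) and -0.26 for Ptbp1 (interval -0.29 to -0.24).

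The 20 neuron markers lay on the same side. All 20 were higher in replicate 1, 10 of them past 1.5-fold, with a median log2 ratio of 0.60 and a summed level of 1890 TPM in replicate 1 and 1188 TPM in replicate 2. Tubb3, a neuronal tubulin, had 562.42 and 363.90 TPM, Stmn3 had 202.73 and 113.48 TPM, and Nhlh1, a transcription factor of young neurons and the lowest by mean, had 5.81 and 4.71 TPM. The 15 neural progenitor markers had a median log2 ratio of 0.07 with 0 past 1.5-fold. Of these, 13 were higher in replicate 1 and 2 lower, and they summed to 3055 TPM in replicate 1 and 2563 TPM in replicate 2. Markers of other cell types differed too. Over the mesenchyme and neural crest markers the median log2 ratio was 0.29, with 3 past 1.5-fold higher and 1 lower, and they summed to 879.1 TPM in replicate 1, against 618.1 TPM in replicate 2. All 8 red cell markers were lower in replicate 1, with a median log2 ratio of -0.27 and 0 past 1.5-fold. Of the 11 surface ectoderm and epithelium markers with a ratio, 10 were lower in replicate 1, 2 of them past 1.5-fold, with a median log2 ratio of -0.32. The remaining marker, Grhl3, was past 1.5-fold higher (log2 0.90, interval 0.54 to 1.28). Of the 10, Krt19 (5.33 and 5.09 TPM) and Cdh1 (7.36 and 6.94 TPM) were higher in replicate 1 by TPM taken without TMM. The part of any of these cell types in the ratios of the splicing regulators was not tested.

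**Figure D2:**
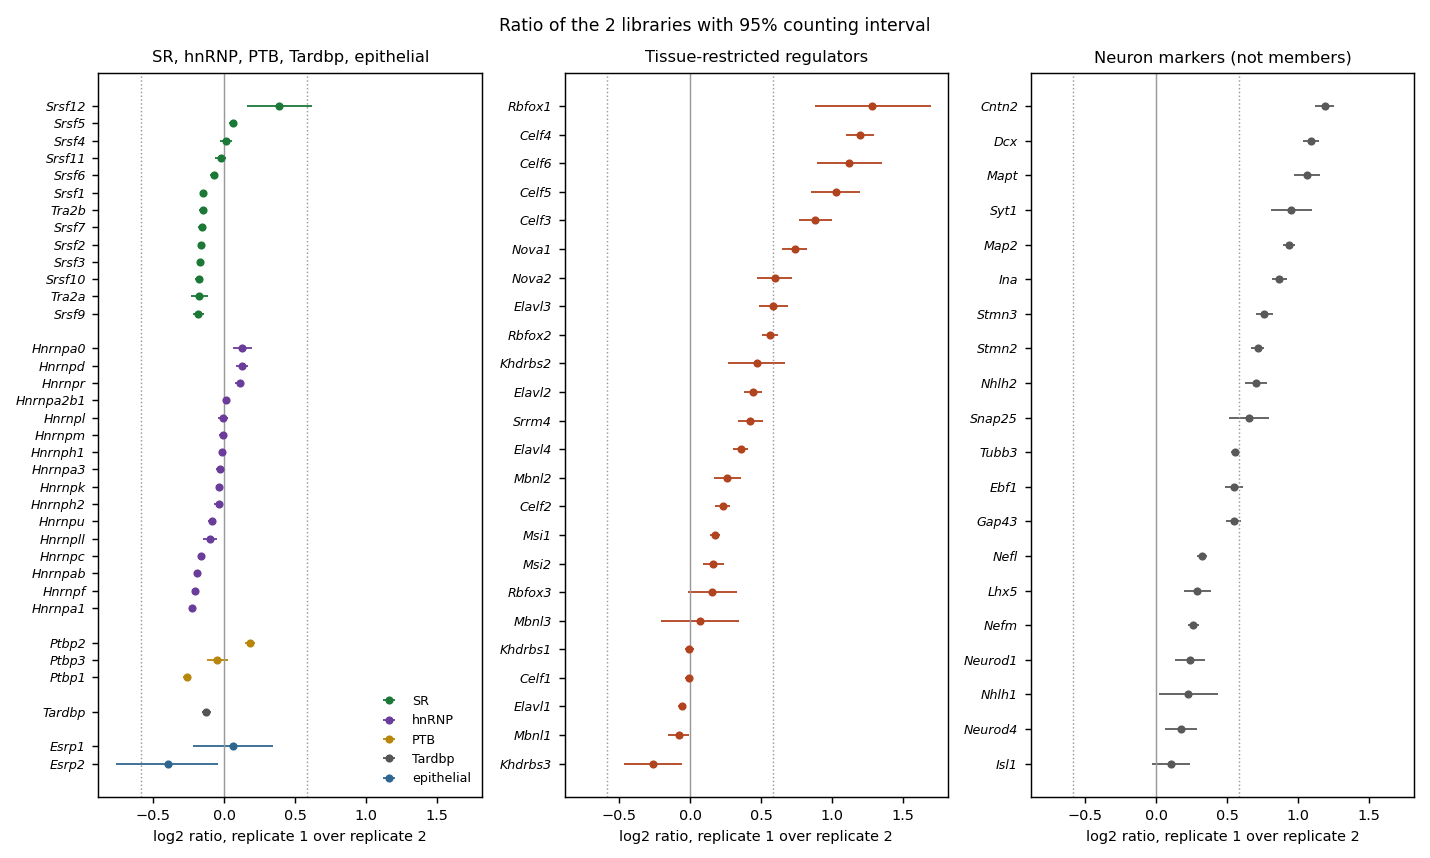
Log2 ratio of replicate 1 over replicate 2 for each gene (points) with its 95% counting interval (bars), for the SR, hnRNP, PTB, Tardbp and epithelial genes, for the tissue-restricted families and, for comparison, for 20 neuron markers. Dotted lines mark 1.5-fold either way; 7 genes of the tissue-restricted families and 10 neuron markers lie beyond the right one, and no gene of the left panel lies beyond either.

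The wider splicing machinery was set beside these genes from lists of other components. All 30 core spliceosome genes were detected. Their median was 178.9 TPM, their median log2 ratio was -0.11 and 0 passed 1.5-fold. Snrpg and Snrpb, proteins of the small nuclear ribonucleoproteins, were highest by mean, with 787.71 and 725.67 TPM in replicate 1 and 908.84 and 794.08 TPM in replicate 2, and Prpf19 was lowest, with 31.34 and 30.26 TPM. Snrpe, with 726.24 and 792.47 TPM, changed places with Snrpb. All 9 kinases that phosphorylate SR proteins were detected. Their median was 39.1 TPM and 0 passed 1.5-fold. Clk1 had 122.77 TPM in replicate 1 and 104.84 TPM in replicate 2, Srpk1 97.36 and 97.50 TPM, and Srpk3, a muscle kinase, 1.30 and 1.38 TPM. Of 15 genes of the exon junction complex and nonsense-mediated decay, all were detected at a median of 31.9 TPM, and 0 passed 1.5-fold. Eif4a3 and Magoh, core proteins of that complex, had 393.94 and 185.05 TPM in replicate 1 and 420.60 and 223.54 TPM in replicate 2, and Upf2 was lowest, with 8.74 and 8.78 TPM. Of 27 other splicing regulators 26 were detected, and the median was 92.8 TPM. Ewsr1 and Nono were highest at means of 802.7 and 541.0 TPM, and Rbm20, a heart and muscle regulator, was the gene not detected, with 0.34 and 0.66 TPM. The 1 gene among them past 1.5-fold was Srrm3, the neural relative of Srrm4, with 22.01 TPM in replicate 1 and 11.82 TPM in replicate 2; it was named after its values were seen.

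Transcript tables gave the makeup of each gene by annotated transcript class. The 59 genes have 453 listed transcripts, of which 3 are not in GENCODE M21 and enter only the totals. In Nova2 such a transcript held 35.6% of TPM in replicate 1 and 49.9% in replicate 2, so that part has no class. By mean share of the gene, the highest transcript was protein coding in 54 genes, a retained-intron model in Hnrnpl, Srsf3 and Srsf5, a processed transcript (one without an annotated reading frame) in Elavl4 and a nonsense-mediated decay model in Tardbp. In 14 genes the highest transcript held at least 90% of the gene, among them Srsf4, Srsf9, Hnrnpc, Rbfox1 and Srrm4 and the 9 genes with only 1 listed transcript, which include Srsf7, Tra2a and Ptbp2. For those 9, and for 11 more that have only coding models, poison exons and retained introns could not be seen.

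The share of TPM outside protein-coding transcripts was high in the SR genes. Its median was 23.97% over the 13 SR genes, 1.70% over the 16 hnRNP genes and 0.731% over the 24 genes of the tissue-restricted families, against 1.73% over detected protein-coding genes. The median of the tissue-restricted families is the midpoint of 0 and the 1.46% of Srrm4. Nova2 enters it as 0 although part of its TPM has no class, so its place against the median of detected genes is not settled. At least 20% was reached by 17 of the 59 genes, beside 22.9% of detected protein-coding genes, and by 7 of the 13 SR genes. These shares depend on length, because short transcript models turn few reads into many TPM. By expected counts, the SR median was 7.04%, against 0.508% over detected protein-coding genes, and 9 of 59 genes, 4 of them SR, reached 20%, beside 13.7%. In 56 of the 59 genes the share differed between libraries by an SD under 5 points, and the others were Celf6, Esrp2 and Ptbp3. The 56 include the 20 genes with only coding models, whose share is 0 in both libraries by annotation. The same count was not taken over all detected genes.

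Srsf3 had the highest share, 61.1% of its TPM in replicate 1 and 60.6% in replicate 2. Its retained-intron model Srsf3-205 had 456.57 and 506.33 TPM, against 380.2 and 416.61 TPM for the coding Srsf3-202. Srsf3-205 is 910 nt long in the deposited table and longer in GENCODE M21, so its extent rests on the older model. By counts the share outside coding transcripts was 43.7% and 42.2%. Srsf5 had 43.8% and 44.2% by TPM, mostly the retained-intron model Srsf5-212, with 170.32 TPM in replicate 1 and 156.88 TPM in replicate 2, against 148.03 and 121.58 TPM for the coding Srsf5-201. It was the one gene of the 8 highest whose share was larger by counts, 55.9% and 56.2%. Srsf11 had 41.4% in replicate 1 and 39.8% in replicate 2, from several retained-intron and decay models.

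Outside the SR genes, Elavl4 had 57.4% in replicate 1 and 58.7% in replicate 2, all of it processed transcripts. Its 869 nt model Elavl4-211 had 59.55 and 41.29 TPM, against 30.73 and 22.24 TPM for the coding Elavl4-202 of 4024 nt. By counts the share was 24.7% and 23.9%, so over the whole gene the coding transcripts took most of the reads. Hnrnph1 had 48.7% and 49.1%, also processed transcripts, with Hnrnph1-212 at 112.06 TPM in replicate 1 and 124.76 TPM in replicate 2 beside the coding Hnrnph1-201 at 198.62 and 177.04 TPM. Hnrnpl had 41.7% and 42.0%, led by the retained-intron model Hnrnpl-210 of 672 nt, with 62.69 and 61.98 TPM; the coding Hnrnpl-201 had 64.17 TPM in replicate 1 and 55.95 TPM in replicate 2, so the order of the pair turned between the libraries. Msi2 had 42.5% and 41.4%, of which the retained-intron models Msi2-205 and Msi2-207 gave 38.8% and 37.9% and processed transcripts 3.69% and 3.49%. Its coding Msi2-203 had 13.98 TPM in replicate 1 and 11.96 TPM in replicate 2.

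Tardbp had 48.1% in replicate 1 and 47.3% in replicate 2, nearly all of it annotated as nonsense-mediated decay. TDP-43 protein is known to lower its own mRNA by the splicing of its last part. Tardbp-208 had 83.45 and 93.27 TPM and Tardbp-228 had 75.38 and 76.43 TPM, against 80.66 TPM in replicate 1 and 89.82 TPM in replicate 2 for the coding Tardbp-204. By counts the share was 36.4% and 37.1%. The class of Tardbp-208 is the annotation's label, since its stop codon, at 148618261 to 148618263 on chromosome 4, is also used by the coding Tardbp-202.

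**Figure D3:**
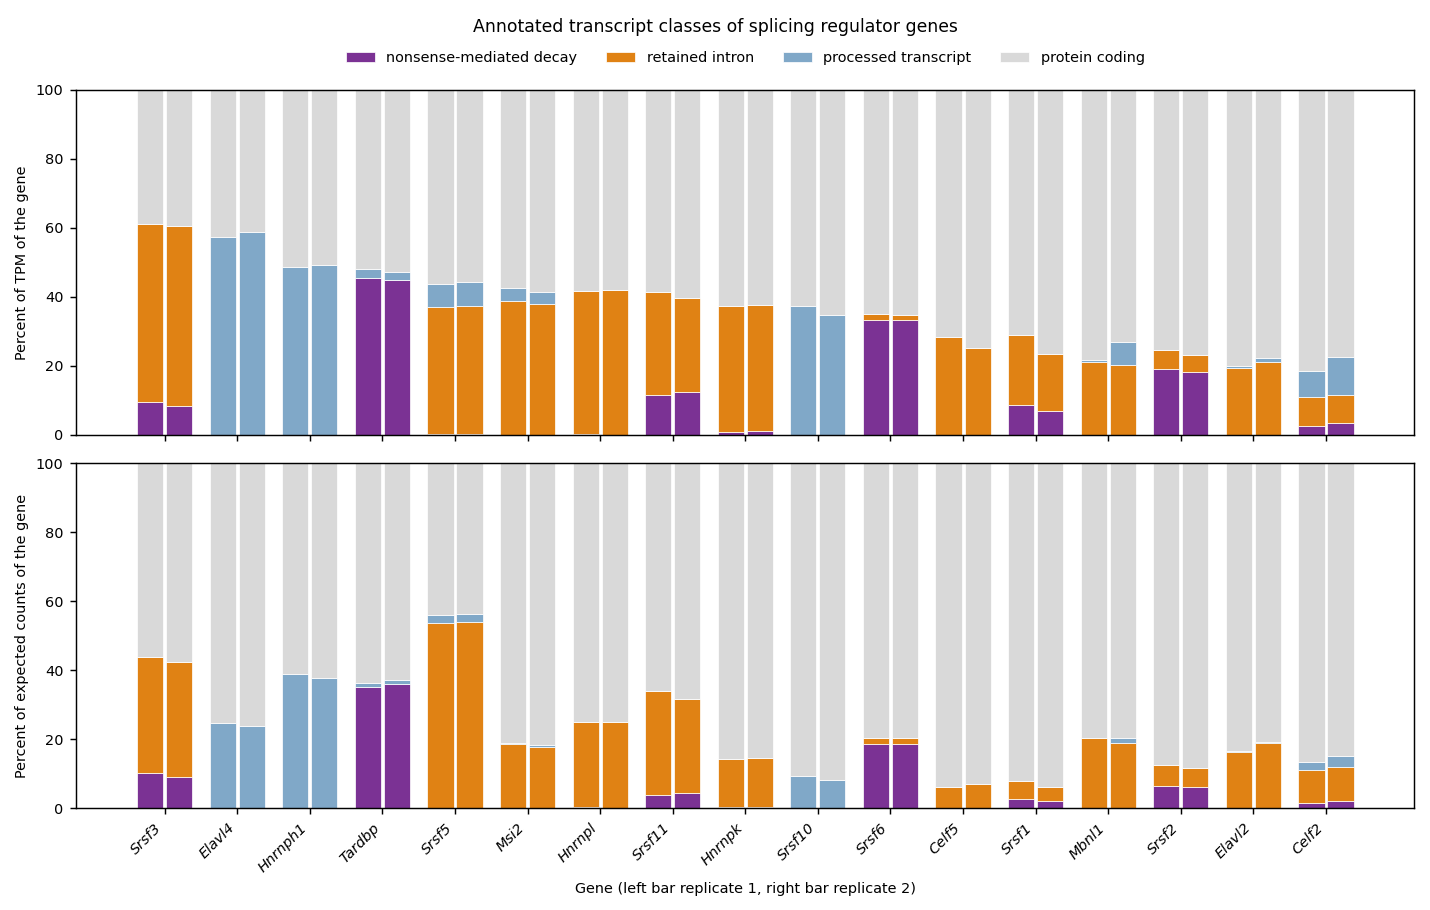
Percent of each gene's TPM (top) and of its expected counts (bottom) in annotated transcript classes, for the 17 splicing regulator genes with at least 20% of TPM outside protein-coding transcripts, ordered by that share. The left bar of each pair is replicate 1 and the right one replicate 2; the pairs look alike, and the share outside coding transcripts is smaller by counts in 16 of the 17 genes, Srsf5 being the exception.

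The stop codons of the SR decay models were looked at base by base. There were 8 SR transcripts, in 7 genes, annotated as nonsense-mediated decay and averaging 5 TPM or more. In 7 of them, in 6 genes, the stop codon is not that of the main coding transcript. It lies in an exon whose start and end together match no exon of that transcript. A shifted or split exon of the main transcript would also count, so these are not all shown to be poison exons. The remaining transcript is Srsf2-204, which uses the normal stop with an added splice after it. These transcripts were chosen after their values were seen. The stretch up to the stop is shown for the highest of each gene, since these stops are what sets the decay models apart from the coding ones; the 57 bases before the stop are in lower case and the stop codon in capitals, from the GENCODE M21 transcripts on GRCm38.
Srsf3-201: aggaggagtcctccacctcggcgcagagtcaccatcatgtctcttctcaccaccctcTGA
Srsf6-201: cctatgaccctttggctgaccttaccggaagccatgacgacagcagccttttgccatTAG
Srsf1-204: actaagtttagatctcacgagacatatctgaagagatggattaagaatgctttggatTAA
Tra2b-206: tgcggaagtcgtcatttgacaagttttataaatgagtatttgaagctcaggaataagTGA
Srsf11-206: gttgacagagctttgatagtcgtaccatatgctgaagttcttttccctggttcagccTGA
Srsf4-204: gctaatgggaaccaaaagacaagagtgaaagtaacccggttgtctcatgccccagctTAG

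Srsf6-201 was the largest of these by share of its gene, with 74.42 TPM in replicate 1 and 74.56 TPM in replicate 2, or 33.2% of Srsf6 in each, against 145.86 and 145.55 TPM for the coding Srsf6-203. Its exon of 268 nt lies at chr2:162932815-162933082 on the plus strand, and the stop is 534 nt before the last exon junction. Srsf3-201 had 92.86 TPM in replicate 1 and 87.88 TPM in replicate 2, or 9.49% and 8.31% of Srsf3. Its exon of 456 nt lies at chr17:29039454-29039909 on the plus strand, and the last 31 of the bases shown before TGA belong to it. Tra2b-206, with an exon of 276 nt at chr16:22258986-22259261 on the minus strand, had 4.68% of Tra2b in replicate 1 and 6.64% in replicate 2. The tables' models of Srsf3-201 and Tra2b-206 differ in length from those of M21, so the sequence is that of the later model.

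Srsf1-204 had 8.18% of Srsf1 in replicate 1 and 6.54% in replicate 2, Srsf11-206 had 6.71% and 7.83% of Srsf11, and Srsf4-204, with an exon of 188 nt, had 4.61% and 3.38% of Srsf4. Across all 6 transcripts the stop lay between 80 and 1015 nt before the last exon junction. In none of the 6 genes did the decay transcript exceed the highest coding one in either library. RNA under decay is measured here at its remaining level, so these shares are not rates of exon use.

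Genes known to be spliced under PTB, hnRNP, Esrp and neural control were read in the same tables. Pkm encodes pyruvate kinase, whose alternative exons M1 and M2 give the adult and the embryonic or proliferative enzyme; Ptbp1, Hnrnpa1 and Hnrnpa2b1 are known to hold M1 out. The exons have the same length and share 103 bases in place (61.7%). They are shown from the GENCODE M21 transcripts, plus strand of GRCm38, M1 at chr9:59675029-59675195 and M2 at chr9:59675568-59675734, and capitals mark the 64 positions at which they differ.
Pkm M1: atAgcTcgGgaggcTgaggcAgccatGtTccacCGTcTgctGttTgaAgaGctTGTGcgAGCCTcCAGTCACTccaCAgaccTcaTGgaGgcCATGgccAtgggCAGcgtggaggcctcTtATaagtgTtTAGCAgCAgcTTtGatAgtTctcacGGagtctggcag
Pkm M2: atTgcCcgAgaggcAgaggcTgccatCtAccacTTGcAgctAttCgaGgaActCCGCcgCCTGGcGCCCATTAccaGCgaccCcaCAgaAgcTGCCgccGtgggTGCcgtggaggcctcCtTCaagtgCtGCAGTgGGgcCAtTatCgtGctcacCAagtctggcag

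Transcripts with M2 held 94.3% of Pkm TPM in replicate 1 and 97.1% in replicate 2. Those with M1 held 5.74% and 2.94%: the M1 transcript had 131.75 TPM in replicate 1, with a deposited credible interval of 121.5 to 136.3 TPM, and 80.8 TPM in replicate 2, with an interval of 74.1 to 84.8 TPM. The intervals, whose level is not stated, did not overlap. The M1 model is longer in the deposited table than in M21.

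In Fgfr2, a receptor of fibroblast growth factors, exon IIIb is the epithelial form that Esrp proteins favour and exon IIIc the mesenchymal and neural one. Among transcripts with either exon, IIIc held 81.1% of TPM in replicate 1 and 82.3% in replicate 2, and IIIb 18.9% and 17.7%. These transcripts had 45.49 TPM in replicate 1 and 45.07 TPM in replicate 2, against 85.20 and 87.25 TPM for the whole gene. The rest could not be placed, among it the highest transcript, Fgfr2-217, with 22.02 and 26.76 TPM. Exon IIIb lies at chr7:130199758-130199905 and IIIc at chr7:130198419-130198563, both on the minus strand. The libraries differed by an SD of 0.879 points.

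In Src, a tyrosine kinase, the N1 exon gives the neuronal protein and is a classical exon held out by Ptbp1. It is 18 nt long, at chr2:157458843-157458860 on the plus strand, and is shown in capitals between the 21 bases on each side of it in the spliced transcript.
Src-202: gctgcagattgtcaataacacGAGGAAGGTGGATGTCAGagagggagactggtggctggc

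Transcripts with N1 held 24.7% of the Src TPM that could be placed in replicate 1 and 14.8% in replicate 2. Src-202, the one with values above 0, had 3.79 TPM in replicate 1, with a deposited interval of 2.22 to 5.47 TPM, and 1.95 TPM in replicate 2, with an interval of 0.721 to 3.55 TPM. These intervals overlap. They belong to the TPM of Src-202 and not to the share with N1, so a difference in that share was not tested. A 12 nt microexon of Kdm1a was read too. The transcript with it, Kdm1a-208 of 965 nt, had 0.95 TPM in replicate 1 and 0.2 TPM in replicate 2, from expected counts of 24.26 and 5.81. That was 2.48% and 0.542% of the TPM of coding transcripts that span the exon.

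**Figure D4:**
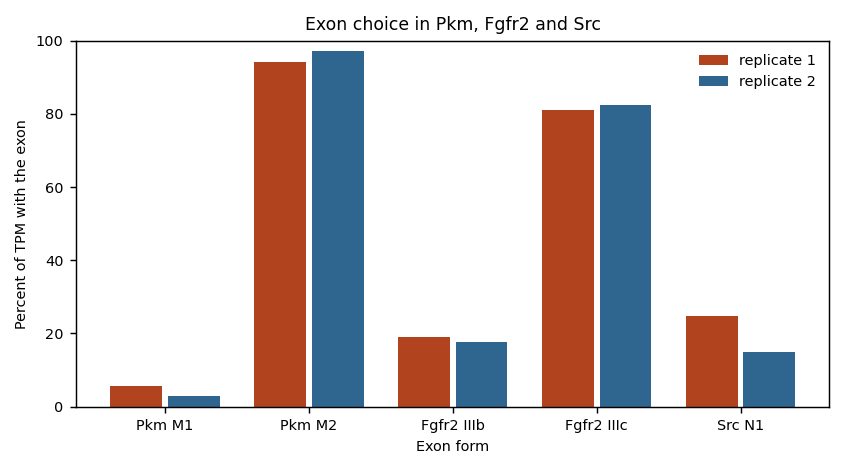
Percent of the TPM that could be placed, in transcripts that hold each alternative exon of Pkm, Fgfr2 and Src. The left bar is replicate 1 and the right bar replicate 2. The base is transcripts with either exon for Pkm and Fgfr2, and coding transcripts that span the exon for Src. For Fgfr2 this base was 45.49 of 85.20 TPM in replicate 1 and 45.07 of 87.25 TPM in replicate 2. Of the base of each gene, Pkm M2 and Fgfr2 IIIc hold over 80% in both libraries, and Src N1 24.7% and 14.8%.

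Promoters were compared by the letters in the 250 bases before the annotated start, from RefSeq promoters on GRCm38.p6. Of the 59 genes 50 matched, with 89 promoters, and the comparison was with 12647 promoters of 9805 detected protein-coding genes. All 4 motifs were searched on both strands, and none contains another. CCGGAAG, the core of Ets factor sites, was in promoters of 4 of 13 SR genes (30.8%), 2 of 15 hnRNP genes and 0 of 19 genes of the tissue-restricted families, beside 15.8% of detected genes. CCAAT was in promoters of 12 of 15 hnRNP genes (80%), 11 of 19 genes of the tissue-restricted families (57.9%) and 4 of 13 SR genes (30.8%), beside 41.3%. CAGNTG, the E-box read by neurogenic factors, was in promoters of 10 of 19 genes of the tissue-restricted families (52.6%), 6 of 13 SR genes (46.2%) and 4 of 15 hnRNP genes (26.7%), beside 42.2%. Of the 6 matched genes past 1.5-fold higher in replicate 1, 5 held it; those 6 genes have 18 promoters, which gives each more chances of a match. TATAAA was in promoters of 2 SR genes, 1 hnRNP gene and 4 genes of the tissue-restricted families, beside 7.51%. The median number of CG pairs per promoter was 24 in SR genes and 23 in hnRNP genes, against 11 in the tissue-restricted families and 16 in detected genes. A match is a description of letters, not a bound site. Promoters are shown for the first 3 motifs, of the highest SR gene, the highest hnRNP gene and the highest of the genes past 1.5-fold that held the motif, with the matches in capitals: Srsf7 at chr17:80207306-80207555, minus strand, with CCGGAAG; Hnrnpk at chr13:58402118-58402367, minus strand, with 2 CCAAT; and Celf3 at chr3:94478045-94478294, plus strand, with CAGCTG.
Srsf7 promoter: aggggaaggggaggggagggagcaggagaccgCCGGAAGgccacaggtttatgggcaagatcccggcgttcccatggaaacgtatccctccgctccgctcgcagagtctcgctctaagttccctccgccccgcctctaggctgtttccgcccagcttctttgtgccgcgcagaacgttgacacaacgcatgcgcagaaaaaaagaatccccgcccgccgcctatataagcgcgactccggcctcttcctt
Hnrnpk promoter: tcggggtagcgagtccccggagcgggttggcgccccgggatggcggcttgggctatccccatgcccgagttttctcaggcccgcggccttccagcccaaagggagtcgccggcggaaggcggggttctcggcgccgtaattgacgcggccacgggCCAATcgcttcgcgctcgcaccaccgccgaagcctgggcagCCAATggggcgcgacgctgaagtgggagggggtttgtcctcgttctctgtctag
Celf3 promoter: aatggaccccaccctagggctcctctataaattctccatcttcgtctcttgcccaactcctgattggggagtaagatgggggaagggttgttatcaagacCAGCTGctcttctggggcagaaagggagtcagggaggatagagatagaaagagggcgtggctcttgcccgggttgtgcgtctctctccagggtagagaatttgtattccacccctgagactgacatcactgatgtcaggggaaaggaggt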

How the data were processed

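Total RNA was read in 2 libraries, each with a gene and a transcript table on mm10 with GENCODE M4, per the file headers and the notes deposited with them; aligner and quantifier were not given in the sources used here. The label is total RNA-seq, but the protocols link the manual of a kit that primes on poly(A), so the RNA captured and its strand are unknown. The deposited expected counts divide ambiguous reads between transcripts and genes by estimate; they were whole within 0.005 for 35 of the 59 genes and were rounded. The deposited TPM values divide counts by length and sum to 1000000 per library. The deposited FPKM values served as an alternative. The deposited TPM interval bounds are a signal of unstated level. The deposited isoform percent is a transcript's share of its gene.

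Names, classes and positions came from GENCODE M21 (GRCm38); 42462 of 43346 identifiers matched. Ratios used TMM (edgeR 4.0.16; factors 1.01 and 0.990), 0.5 added to each count and a mean of at least 1 TPM; DESeq2 1.42.0 size factors were an alternative. The 97 spike-in and 26248 tRNA rows stayed out. Exons of 23 of the 59 genes overlap another gene's, and in 6 that gene had over 5% of the member's count. Every member is named: in full the 3 highest and 2 lowest of each class, the PTB, Tardbp, epithelial and tissue-restricted genes, those past 1.5-fold and the transcripts of the 8 with the most TPM outside coding models; of other lists, the 2 highest and the lowest. Members and lists were chosen with earlier results of these data known. Scripts were tested on simulated counts. The intervals cover counting error only and treat reads as independent. PCR copies of a molecule are not independent, so the intervals may be too narrow even for that error. Separate pools, not single animals, are the replicates.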

Additional observations from a re-analysis of the deposited data

How the results depend on the processing

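No paired analysis was possible because there is 1 group and a ratio of the libraries needs both. All 59 genes stayed detected at 0.5 TPM, with posterior mean TPM and in either library alone; 58 were at FPKM and 50 at 5 TPM. FPKM, a different unit, gave class medians of 81.9 for all genes, 221.1 for SR, 211.8 for hnRNP and 8.98 for the tissue-restricted families; posterior mean TPM gave 328.8 for hnRNP. In each library alone, the medians were 125.04 to 133.15 TPM for all genes, 336.5 to 348.65 for SR, 330.8 to 338.0 for hnRNP and 10.31 to 17.49 for the tissue-restricted families. TPM with no further scaling gave median log2 ratios of 0.0801 for all genes, -0.0544 for SR and 0.0251 for hnRNP, which turned its sign, and scaling by total count gave -0.121 for SR and -0.00398 for hnRNP; the tissue-restricted median lay between 0.36 and 0.48. The SR and hnRNP medians are thus of about the size of the scaling choice. Past 2-fold there were 4 genes higher in replicate 1 (Celf4, Celf5, Celf6 and Rbfox1), beside 2.08% of genes, and past a ratio of 5 to 4 there were 14 higher and 1 lower, beside 15% and 8.57%. DESeq2 size factors gave 7 at 1.5-fold, a mean of at least 5 TPM gave 6 and unscaled TPM gave 8. The share over all genes was not taken under these settings. By expected counts, the median share outside coding transcripts was 1.58% for all genes, 7.04% for SR, 0.443% for hnRNP and 0.302% for the tissue-restricted families. With posterior mean TPM it was 6.13% for all genes and 3.41% for the tissue-restricted families, and at 5 TPM or more 5.71% for all genes and 25.1% for SR. In each library alone it was 2.91% to 3.47% for all genes, 23.2% to 24.7% for SR, 1.66% to 1.73% for hnRNP and 0% to 0.490% for the tissue-restricted families. Ptbp1 over Ptbp2 was 1.59 to 2.16 in single libraries, 1.88 with FPKM, 1.90 with posterior mean TPM and 1.58 by counts not divided by length. Genes under about 100 expected counts, such as Rbfox1 in replicate 2, have wide counting intervals.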
